A study of Mus musculus with 90 samples.

Results

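The kidney was 1 of the 15 tissues taken from female C57BL/6 mice (C57BL/6J in the study's paper) in estrus and in diestrus, and its 6 libraries, 3 of each phase, were those among the 90 of the study whose labels name this tissue. The labels give an age of 10 weeks, a 12-h light/dark cycle and staging of each mouse by a methylene blue stain of vaginal secretions. The labels name no transgene and no administered agent in either group. Per the study's methods, the same 3 mice of each phase gave every tissue, but the labels do not say which kidney library shares a mouse with which library of another tissue, and the hour at which tissues were taken is not given in the sources used here. A library is named here by its phase and the replicate number of its label.

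Estrus follows the estrogen peak of the mouse cycle, whereas diestrus is the long progesterone-dominated phase. The kidney reads sex steroids through their receptors: estrogen acts mainly through Esr1 there, and androgens set the level of Kap, the kidney androgen-regulated protein of the proximal tubule. The kidney also runs a strong circadian clock, in which Arntl (Bmal1) with Clock or Npas2 drives Per, Cry, Nr1d1, Nr1d2, Dbp and Ciart, and the Per, Cry, Nr1d and Ciart proteins in turn repress Arntl, Npas2 or the activity of their complex. Dbp, Tef and Hlf pass the rhythm on to transporters and metabolic enzymes of the tubule.

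Transcript levels were the deposited FPKM values (fragment counts divided by transcript length and by library size) of 20414 genes, of which 12424 had a mean of 1 or more over the 6 kidney libraries and were tested. From the steps between the low FPKM of short genes, each library appeared to hold about 13100000 to 14400000 reads. The study's methods give a higher approximate number of reads generated per sample. The markers of the nephron were present in all 6 libraries. Umod of the loop of Henle ranged from 1410 to 1798 FPKM, Slc34a1 of the proximal tubule from 1904 to 2985 FPKM, Slc12a3 of the distal convoluted tubule from 156 to 364 FPKM and Aqp2 of the collecting duct from 104 to 420 FPKM. Libraries of the same phase were no more alike than libraries of different phases, with a mean Pearson correlation across tested genes of 0.982 for the 6 pairs within a phase and 0.983 for the 9 pairs between phases, as a description over genes, which are not independent replicates.

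Fold changes are differences of log2(FPKM + 1), estrus minus diestrus, which understates the change of genes near 1 FPKM. No gene passed an absolute log2 fold change of 1 together with a Benjamini-Hochberg adjusted p of 0.05 in limma (0% of 12424 genes), and the smallest adjusted p was 1.00. Without adjustment, 188 genes (1.51%) had a p under 0.05 and a higher level in estrus, and 169 (1.36%) had one and a lower level. In 528 genes (4.25%) every estrus library lay above every diestrus library, and in 464 (3.73%) every one lay below. A log2 fold change of 1 or more was reached by 19 genes higher in estrus (0.153%) and by 21 genes lower in estrus (0.169%). The median over all tested genes was -0.01. Since no gene was called, every gene named here is described by its values, with the standard error (SE) of limma beside its log2 fold change. With 3 mice against 3, an exact permutation test of a single gene cannot give a two-sided p under 0.1.

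**Figure D1:**
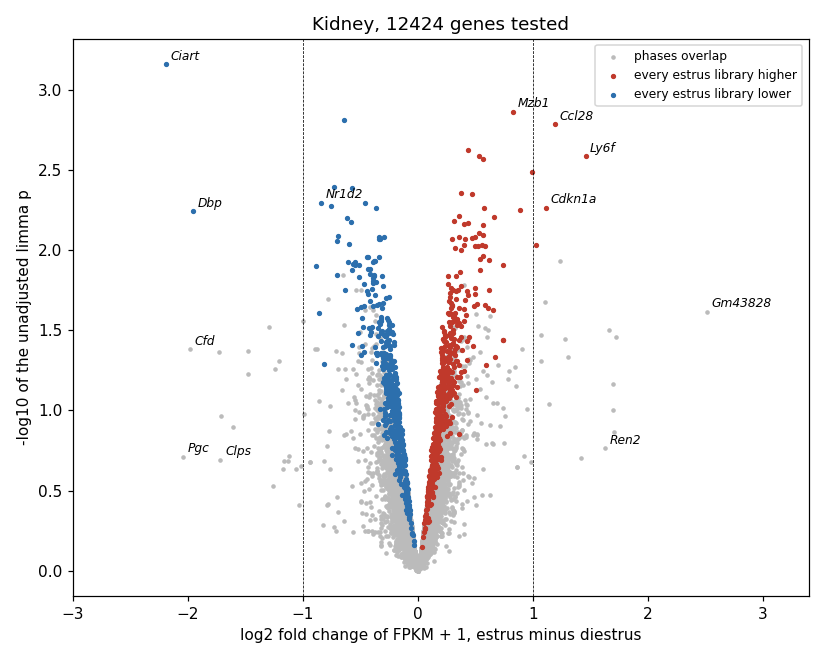
Each point is 1 of 12424 tested kidney genes, with the log2 fold change of FPKM + 1 (estrus minus diestrus) on the x axis and -log10 of the unadjusted limma p on the y axis; dashed lines mark a log2 fold change of 1 in either direction. Ciart and Dbp lie far to the left with no overlap of the phases, whereas most other points beyond the dashed lines are grey, since their phases overlap.

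The 2 genes lower in every estrus library by the largest amounts belonged to the circadian clock. Ciart, a repressor of the Clock-Arntl complex, was at 1.22, 3.50 and 4.09 FPKM in estrus replicates 1, 2 and 3 and at 25.9, 9.23 and 16.6 FPKM in diestrus replicates 1, 2 and 3. Dbp, a clock-controlled transcription factor that binds D-box elements, was at 15.6, 81.5 and 24.8 FPKM in estrus and at 158, 99.2 and 127 FPKM in diestrus. Neither gene had an estrus library that reached a diestrus library. The log2 fold change was -2.19 (SE 0.40) for Ciart and -1.95 (SE 0.52) for Dbp, both had an unadjusted p under 0.05, and the limma adjusted p was 1.00 for both. Leaving out any 1 library kept the value of Ciart at -1.82 or below and that of Dbp at -1.46 or below.

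The letters just before the starts of these genes are shown because E-boxes and D-boxes are the sites through which the clock is known to act. A RefSeq window of 250 bases before to 50 bases after the start (GRCm38.p6) was found for 5 of the 6 clock genes whose phases did not overlap, and the 250 bases before the start are printed for the 3 of them with an E-box or a D-box, both strands searched, with those motifs in capitals. The printed stretches are chr3:95882229-95882478 on the minus strand for Ciart, chr4:151044666-151044915 on the minus strand for Per3 and chr6:145865421-145865670 on the minus strand for Bhlhe41.
Ciart: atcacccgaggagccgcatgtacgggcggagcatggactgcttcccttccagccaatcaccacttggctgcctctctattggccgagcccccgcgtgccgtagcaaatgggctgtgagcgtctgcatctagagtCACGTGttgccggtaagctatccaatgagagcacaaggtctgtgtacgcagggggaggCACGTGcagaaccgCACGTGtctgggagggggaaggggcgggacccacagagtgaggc
Per3: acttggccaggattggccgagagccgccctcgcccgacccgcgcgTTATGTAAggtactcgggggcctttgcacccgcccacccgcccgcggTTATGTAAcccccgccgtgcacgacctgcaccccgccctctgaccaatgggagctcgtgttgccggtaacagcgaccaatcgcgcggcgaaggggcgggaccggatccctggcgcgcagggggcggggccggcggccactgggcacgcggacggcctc
Bhlhe41: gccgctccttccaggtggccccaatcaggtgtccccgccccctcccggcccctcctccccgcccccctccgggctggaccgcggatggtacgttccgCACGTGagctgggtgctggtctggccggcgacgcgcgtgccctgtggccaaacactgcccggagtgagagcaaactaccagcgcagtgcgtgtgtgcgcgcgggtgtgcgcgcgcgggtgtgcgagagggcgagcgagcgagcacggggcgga
Ciart held 3 copies of the E-box CACGTG, starting 116, 58 and 44 bases before its start, and Bhlhe41 held 1 copy, 153 bases before. Per3 held 2 copies of the D-box TTATGTAA, 205 and 158 bases before its start. Of all 32851 windows, each with the 50 bases after the start included, 7.15% held CACGTG and 0.938% held TTATGTAA. The windows of Dbp and Nr1d2 held neither. That of Nr1d2 held AGGTCA, a part of the estrogen response element and not the whole of it, which 16.3% of all windows held. Of the 12 clock genes with a window whose phases overlapped, 3 (Per1, Cry1 and Tef) also held the E-box. Outside the clock lists, Coq10b, lower in estrus, held an E-box and a D-box, and Sec14l3, higher in estrus, held a D-box. A match of letters is a description and not a bound site.

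The other clock genes that the clock complex drives were also lower on average in estrus. Of the 15 genes of a list with peaks near that of Dbp, 15 had a log2 fold change below 0, and the median was -0.64. In this list 7 had an unadjusted p under 0.05 and 6 did not overlap between the phases. The list holds Ciart and Dbp, which are included in each of these counts. For comparison, 3.73% of all tested genes were lower without overlap and 1.36% were lower with an unadjusted p under 0.05. Per3, a period gene, was at 3.15, 7.57 and 7.17 FPKM in estrus and at 11.4, 9.43 and 13.1 FPKM in diestrus (log2 fold change -0.88, SE 0.27, and -0.55 without estrus replicate 1). Nr1d2, a repressor of Arntl, was at 20.2, 23.9 and 12.7 FPKM in estrus and at 32.9, 29.5 and 38.9 FPKM in diestrus (log2 fold change -0.84, SE 0.22). Both separated the phases, although the range within estrus was wider than the gap between the phases. Bhlhe41, a repressor that competes for E-boxes, was at 0.34, 1.17 and 0.88 FPKM in estrus and at 2.08, 1.83 and 2.02 FPKM in diestrus. Its relative Bhlhe40 was at 37.2, 47.4 and 48.1 FPKM in estrus and at 67.2, 55.3 and 56.8 FPKM in diestrus (log2 fold change -0.43, SE 0.13). The list's remaining members (Per1, Per2, Cry2, Tef, Hlf, Nr1d1, Wee1, Usp2 and Tsc22d3) ranged in log2 fold change from -1.12 for Nr1d1 to -0.19 for Tsc22d3, and their phases overlapped. The value of Nr1d1 rested on estrus replicate 3 and was -0.05 without it.

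Arntl and Npas2, of the positive limb of the clock, were higher on average in estrus, with overlap of the phases. Arntl was at 5.77, 2.2 and 3.79 FPKM in estrus and at 0.62, 2.82 and 0.69 FPKM in diestrus (log2 fold change 1.10, SE 0.38), so that diestrus replicate 2 overlapped estrus. Npas2, a partner of Arntl, was at 3.66, 1.07 and 0.67 FPKM in estrus and at 0.11, 1.10 and 0.16 FPKM in diestrus (log2 fold change 0.86, SE 0.41, and 0.42 without estrus replicate 1). Clock itself had a log2 fold change of -0.07. Of the 6 tested genes of the list that peaks with Arntl, 3 lay above 0 and 3 below, 1 had an unadjusted p under 0.05 and 0 were free of overlap. For all 3 of Ciart, Dbp and Arntl, diestrus replicate 2 was the diestrus library nearest to estrus.

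**Figure D2:**
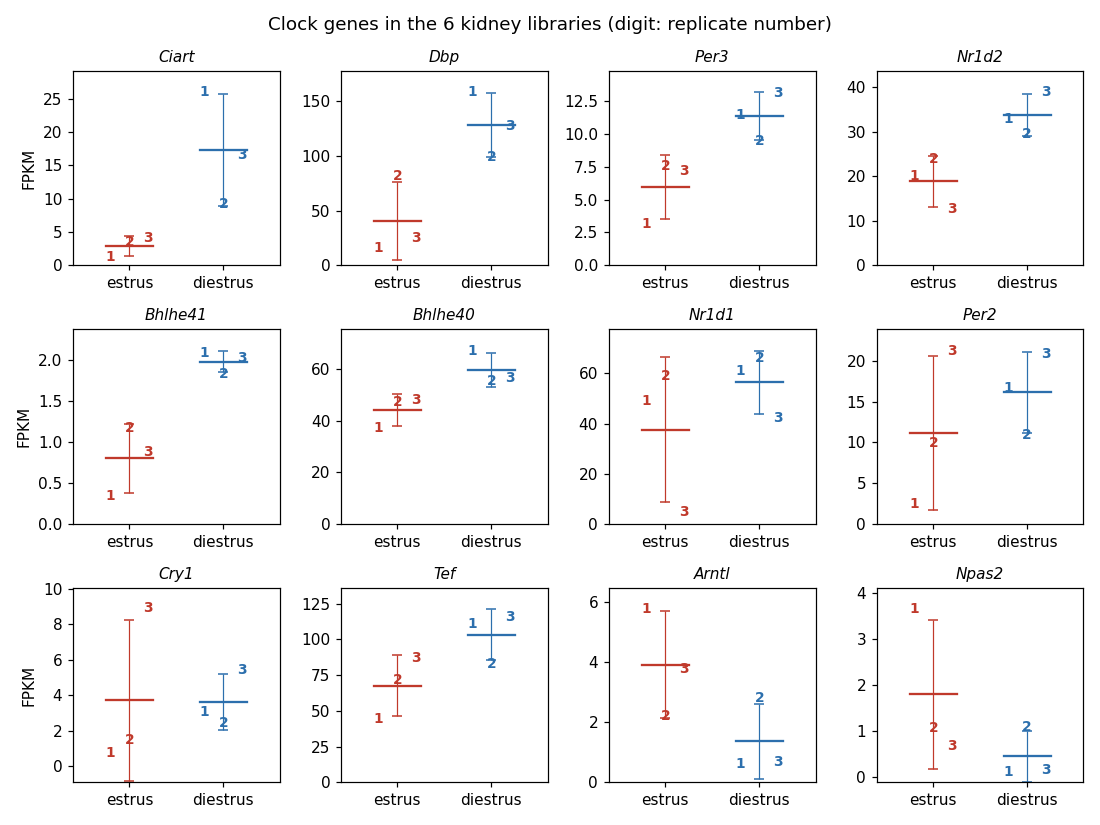
FPKM of 12 clock genes in the 6 kidney libraries, with estrus in red and diestrus in blue; digits are replicate numbers, horizontal bars are means and error bars are SD (n = 3). Ciart, Dbp, Per3, Nr1d2, Bhlhe41 and Bhlhe40 separate the phases, whereas estrus replicates 1 and 3 lie at opposite ends for Per2 and Cry1, and Nr1d1 is lowest in estrus replicate 3.

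The 3 estrus kidneys did not hold 1 state of the clock. Per2, a period gene, was lowest of the 6 libraries in estrus replicate 1 (2.46 FPKM) and highest in estrus replicate 3 (21.2 FPKM), with diestrus between 10.9 and 20.8 FPKM. Cry1, a cryptochrome, ran from 0.77 FPKM in estrus replicate 1 to 8.93 FPKM in estrus replicate 3, with diestrus between 2.41 and 5.40 FPKM. Both genes thus had their extremes within estrus. Nr1d1, a repressor of Arntl like Nr1d2, was lowest in estrus replicate 3 (4.88 FPKM), whereas estrus replicate 1 (48.8 FPKM) lay within the diestrus range of 42.3 to 66.2 FPKM. Tsc22d3, a glucocorticoid-induced gene with a daily rhythm, was at 19.5 FPKM in estrus replicate 1 and 75.9 FPKM in estrus replicate 3. Estrus replicate 1 was the lowest of the 6 libraries in 13 of the 15 genes of the Dbp list and estrus replicate 3 in the other 2, against 12.0% and 39.1% of all tested genes.

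Counts over the clock list depended on the libraries included. Without estrus replicate 1, 14 of 15 members were below 0, and the median was -0.37. Without estrus replicate 3, 12 members did not overlap and 13 had an unadjusted p under 0.05, while without diestrus replicate 2 the members without overlap numbered 10. The counts over all 12424 tested genes, in either direction, rose as well. Genes without overlap numbered 992 with all 6 libraries, 2420 without estrus replicate 3 and 2452 without diestrus replicate 2. Genes with an unadjusted p under 0.05 numbered 357 with all 6 libraries and 558 without estrus replicate 3. The hour of collection, which was not given, cannot be told apart from the phase for a gene with a daily rhythm.

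In liver and heart of the same study the estrus libraries were ordered otherwise for Dbp, Nr1d1 and Arntl, but not for Ciart and Per2. Ciart was at 0.31, 1.08 and 18.2 FPKM in the estrus libraries of liver and at 1.88, 3.16 and 19.3 FPKM in those of heart. Its order was that of the kidney, and estrus replicate 1 was the lowest estrus library for Dbp, Ciart and Per2 in all 3 tissues. Liver Dbp was at 0.98, 44.0 and 127 FPKM in estrus and at 127, 85.2 and 127 FPKM in diestrus, and heart Dbp was at 12.5, 45.1 and 152 FPKM in estrus and at 138, 73.7 and 153 FPKM in diestrus. There estrus replicate 3 lay among the diestrus libraries, which it did not in the kidney. Liver Nr1d1 was at 63.4 FPKM in estrus replicate 3 and heart Nr1d1 at 105 FPKM, against 4.88 FPKM in the kidney library of that number. Across tissues the log2 fold change of Dbp ran from -2.32 in liver through -1.95 in kidney to 2.31 in vein and 2.32 in aorta. These are side-by-side values, and the libraries of different tissues may share mice.

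Besides the clock, 5 genes completed the 10 named for a lower level in every estrus library. Tmem267, a transmembrane protein gene, was at 15.5, 8.79 and 10.8 FPKM in estrus and at 35.7, 15.7 and 17.7 FPKM in diestrus (log2 fold change -0.86, SE 0.31, and -0.51 without diestrus replicate 1); estrus replicate 1 and diestrus replicate 2 were nearly level. Its log2 fold change was below 0 in all 14 other tissues as well, without overlap in 8 of them. Of the 12424 tested genes, 4 were below 0 in all 15 tissues, and 3 were lower without overlap in at least 8 of the other 14. In muscle, for example, Tmem267 was at 17.9, 13.4 and 16.8 FPKM in estrus and at 42.7, 32.7 and 21.1 FPKM in diestrus. Tissues of 1 mouse are not independent, so that 15 tissues are not 15 replicates.

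Car14, a membrane-bound carbonic anhydrase of the proximal tubule, was at 76.7, 45.9 and 72.1 FPKM in estrus and at 110, 87.0 and 117 FPKM in diestrus (log2 fold change -0.71, SE 0.20). Stra6, the receptor for retinol-binding protein, was at 1.68, 3.10 and 3.20 FPKM in estrus and at 3.60, 5.37 and 5.74 FPKM in diestrus (log2 fold change -0.70, SE 0.22). Lonrf1, a RING finger gene, was at 2.21 to 4.07 FPKM in estrus against 5.04 to 6.02 FPKM, and Coq10b, which encodes a coenzyme Q-binding protein, at 22.1 to 39.5 FPKM against 44.1 to 53.8 FPKM. In Stra6, Lonrf1 and Coq10b, estrus replicate 1 was the lowest library, as in most of the clock list.

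Among genes higher in estrus in every library, Ly6f, of the Ly6 family of membrane-anchored proteins, had the largest difference. It was at 15.1, 16.8 and 35.7 FPKM in estrus and at 4.64, 9.17 and 7.81 FPKM in diestrus (log2 fold change 1.46, SE 0.34). Ccl28, a chemokine of epithelia, was at 13.8, 6.70 and 13.2 FPKM in estrus and at 4.51, 4.66 and 3.32 FPKM in diestrus (log2 fold change 1.19, SE 0.25). Cdkn1a, which encodes the cell-cycle inhibitor p21, was at 8.39, 8.39 and 17.4 FPKM in estrus and at 3.74, 6.27 and 3.61 FPKM in diestrus (log2 fold change 1.12, SE 0.29). Estrus replicate 3 was the highest library for Ly6f and Cdkn1a, and without it their log2 fold changes were 1.09 and 0.79. Ccl28 is the next gene to Tmem267 on the chromosome, although the differences of the pair ran in opposite directions.

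The remaining differences of this direction were smaller. Scgb1c1, a secretoglobin, was at 5.98, 2.76 and 7.48 FPKM in estrus against 1.39 to 2.41 FPKM in diestrus (log2 fold change 1.03, SE 0.30), and Urah, an enzyme of urate breakdown that lies close to it with 1 gene between, was at 5.81, 3.76 and 7.70 FPKM against 2.29 to 3.43 FPKM (0.74, SE 0.23). Sec14l3, a lipid-binding protein, was at 26.5, 14.1 and 25.8 FPKM in estrus against 9.23 to 12.3 FPKM in diestrus (0.89, SE 0.24). In these 3 genes estrus replicate 2 was the estrus library nearest to diestrus. Ugt1a6b, a glucuronosyltransferase that shares exons with the other Ugt1a genes and so has an uncertain count, was at 12.6 to 18.4 FPKM against 4.58 to 9.42 FPKM (1.00, SE 0.24). Mzb1, known from B and plasma cells, was at 2.80, 2.84 and 4.23 FPKM in estrus against 1.24 to 1.68 FPKM in diestrus (0.83, SE 0.17). The summed plasma cell list overlapped between the phases, at 82.7 to 98.9 FPKM in estrus and 79.9 to 126 FPKM in diestrus. Xbp1 alone, at 73.1 to 119 FPKM, made up most of that sum, and every other marker of the list was at or under 5.17 FPKM. The sum thus says little about plasma cells. Of 10 B cell markers, 0 reached the level tested. The summed B cell list was 11.2 FPKM in estrus replicate 3, the library with the highest Mzb1, against 2.22 to 4.46 FPKM in the other 5, and its part in the value of Mzb1 was not tested. Gm2260 and Gm2274 had identical values in every library (12.5 FPKM in estrus replicate 3 and 2.86 to 5.72 FPKM elsewhere), so that they count as 1 measurement, whose log2 fold change of 0.74 was 0.41 without estrus replicate 3.

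**Figure D3:**
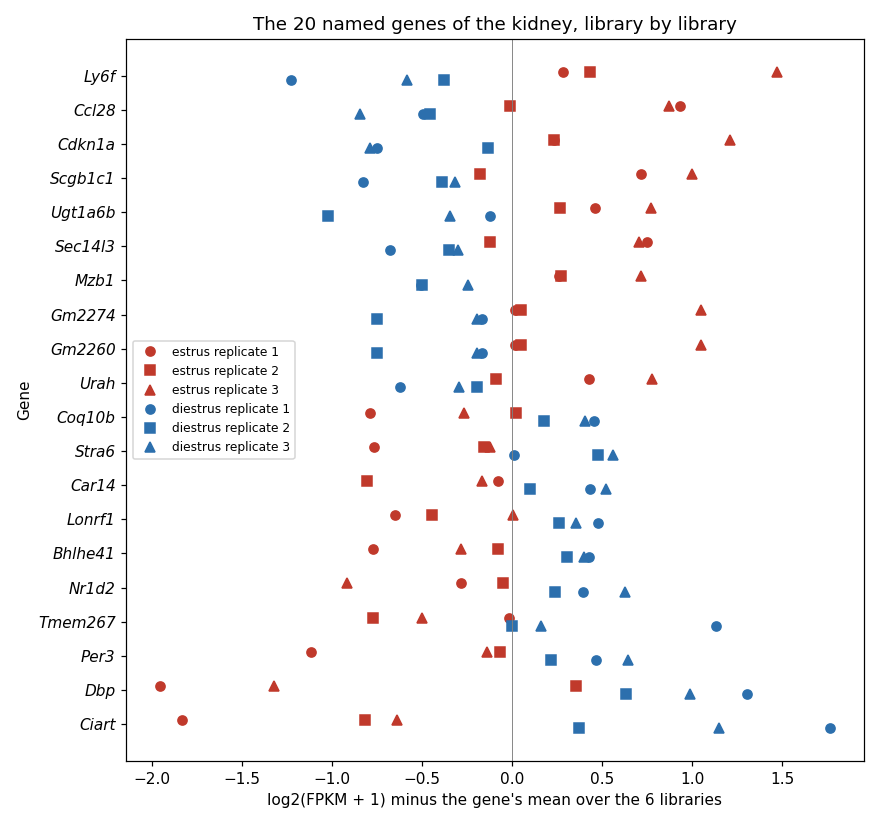
Each row is 1 of the 20 named genes, 10 higher and 10 lower in estrus, with log2(FPKM + 1) minus the gene's mean over the 6 libraries on the x axis; estrus libraries are red, diestrus libraries blue, and symbols mark the replicate. In every row the red and blue symbols do not overlap, since the genes were chosen so, and Ciart and Dbp span the widest range.

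Sex steroid receptors overlapped between the phases. Esr1, the main estrogen receptor of the kidney, was at 1.77, 2.54 and 0.87 FPKM in estrus and at 1.40, 2.55 and 1.97 FPKM in diestrus. Esr2 stayed at or under 0.28 FPKM, Pgr, the progesterone receptor, at or under 0.43 FPKM, and Gper1 had a mean of 0.995 FPKM, just under the filter. Prlr, the prolactin receptor, was at 44.3 to 104 FPKM in estrus and 51.3 to 76.9 FPKM in diestrus. In the list of steroid and pituitary hormone receptors, 0 of 10 tested members passed an unadjusted p of 0.05. Of 24 tested members of a list of estrogen-responsive genes, 12 lay above 0 and 12 below. A single member, the complement gene C3, was without overlap, while 7.98% of all tested genes were in either direction. C3 was at 9.42, 8.01 and 12.7 FPKM in estrus and at 5.65 to 6.95 FPKM in diestrus. An unadjusted p under 0.05 was reached by 2 members higher in estrus and 1 lower, against 2.87% of all tested genes in either direction.

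Kap was the most abundant of the androgen-dependent genes and was higher in every estrus library, with 35311, 41457 and 34080 FPKM in estrus and 25187, 30504 and 30904 FPKM in diestrus (log2 fold change 0.36, SE 0.22). Odc1, which makes putrescine and is also androgen-dependent, was lower in every estrus library, with 123 to 143 FPKM against 152 to 166 FPKM (log2 fold change -0.26, SE 0.09). Ces1f, a carboxylesterase of the same list, was also higher in every estrus library, with 74.9, 66.3 and 74.0 FPKM against 54.3, 59.4 and 62.2 FPKM. The list of 13 tested members thus had 2 higher and 1 lower without overlap, with 5 above 0 and 8 below. Of all tested genes, 4.25% were higher and 3.73% were lower without overlap. The unadjusted limma p of Kap was 0.14. Akr1c18, which inactivates progesterone, was at 276, 138 and 293 FPKM in estrus and at 57.0, 143 and 103 FPKM in diestrus (log2 fold change 1.23, SE 0.38), so that the phases overlapped through estrus replicate 2 and diestrus replicate 2 alone. Akr1c18 was not among the genes the naming rule selected and was singled out after its values were seen.

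In the renin-angiotensin system, Ren1 was at 92.8, 125 and 84.3 FPKM in estrus and at 76.7, 44.3 and 86.9 FPKM in diestrus (log2 fold change 0.57, SE 0.25). Agt, which encodes angiotensinogen, was at 51.5, 58.4 and 59.0 FPKM in estrus and at 40.3, 52.0 and 43.9 FPKM in diestrus (log2 fold change 0.31, SE 0.12). Each overlapped through 1 library of diestrus. Ace and Agtr1a overlapped widely, with log2 fold changes of -0.06 and 0.13. Klk1, tissue kallikrein, ranged from 4027 to 4600 FPKM in estrus and from 2413 to 4993 FPKM in diestrus. Of the 13 members tested, Anpep, a membrane aminopeptidase, was the 1 without overlap, at 89.4 to 104 FPKM in estrus and 73.8 to 87.5 FPKM in diestrus, while 7.98% of all tested genes had none in either direction.

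Among transporters, the phosphate carrier Slc34a3 was at 18.3, 29.3 and 21.7 FPKM in estrus and at 33.9, 30.2 and 36.7 FPKM in diestrus (log2 fold change -0.54, SE 0.17), whereas the more abundant Slc34a1 overlapped, with a log2 fold change of -0.13. Slc4a4, the bicarbonate exit carrier of the proximal tubule, was at 91.2 to 110 FPKM in estrus and 121 to 149 FPKM in diestrus. Slc22a2, an organic cation transporter, was at 97.2 to 121 FPKM in estrus and 73.8 to 92.7 FPKM in diestrus. Of 28 proximal tubule genes, 4 were lower and 1 was higher at an unadjusted p under 0.05, against 1.36% and 1.51% of all tested genes. Across whole segment lists the median log2 fold change was -0.11 for 28 proximal tubule genes, -0.02 for 14 loop of Henle genes, -0.11 for 10 distal convoluted tubule genes, 0.06 for 18 collecting duct genes and 0.14 for 9 podocyte genes.

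Of the 23 genes of cholesterol synthesis, 5 were lower in every estrus library and 0 were higher in every one, against 3.73% and 4.25% of all tested genes. Idi1, an isomerase of this route, was at 1.38 to 2.50 FPKM in estrus and 3.25 to 3.75 FPKM in diestrus (log2 fold change -0.62, SE 0.17). Insig1, which holds back the pathway, and Msmo1, an oxidase of it, were also among them, with log2 fold changes of -0.33 and -0.09. The list as a whole had a median of -0.07 and 15 of 23 members below 0, against a median of -0.01 over all tested genes. In fatty acid oxidation, 21 of 28 tested genes lay above 0, against 48.0% of all tested genes, with a median of 0.15, and 13 of the 28 were highest in estrus replicate 3. There Acot2, a mitochondrial thioesterase, was higher in every estrus library (19.1 to 26.2 FPKM against 14.4 to 17.9 FPKM), and Ppara, which drives the pathway, was lower in every one (18.0 to 20.3 FPKM against 21.1 to 24.3 FPKM).

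Most large differences were not shared by the mice of a phase. Of the 19 genes higher in estrus by a log2 fold change of 1 or more, 4 did not overlap, 1 fell below 0.5 when a single library was left out, and 14 overlapped without resting on 1 library. Of the 21 lower in estrus, 2 did not overlap, and they were Ciart and Dbp. Another 12 rested on a single library, and 7 were mixed. The 13 genes of both directions that rested on 1 library depended on diestrus replicate 3 in 6 cases, diestrus replicate 2 in 3, estrus replicate 3 in 2, and estrus replicates 1 and 2 in 1 each. Over all tested genes there were 94 cases, in 93 genes, of a library that stood at least 1 log2 unit above or below the other 5, and diestrus replicate 2 was the high one in 35 of them.

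Diestrus replicate 3 held transcripts known from stomach, pituitary and muscle. Pgc, which encodes the stomach proenzyme progastricsin, was at 65.2 FPKM there and at or under 0.05 FPKM in the other 5 kidney libraries. Clps, which encodes colipase, was at 34.5 FPKM and listed at 0 in the other 5. Prl, the pituitary hormone prolactin, was at 9.51 FPKM and listed at 0 in the other 5. These 3 genes accordingly had log2 fold changes of -2.04, -1.72 and -1.13 that came from 1 library. The same library was highest by at least 1 log2 unit for Gkn1, Gkn2, Tff1 and Tff2 of the gastric mucosa, for Pla2g1b, and for Tnnt3, Acta1 and Mylpf of muscle fibres, 11 genes in all. In the series as a whole, the median of Pgc was highest in stomach (50066 FPKM), that of Clps also in stomach (28573 FPKM), that of Prl in hypothalamus (194 FPKM) and that of Tnnt3 in muscle (22683 FPKM). Of the 11 listed markers of the pancreatic acinus, 10 were at 0 in diestrus replicate 3, and Cela1, at 62.7 FPKM there, was within the 42.1 to 63.3 FPKM of the other 5.

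Diestrus replicate 2 stood out with genes of the lining of the renal pelvis, of fat and of the medulla. The summed urothelium list was 175 FPKM there, against 74.0 FPKM in estrus replicate 1 and 18.1 to 23.2 FPKM in the other 4, and all 8 tested members (Upk1a, Upk1b, Upk2, Upk3a, Upk3b, Psca, Sprr1a and Gata3) were highest in it. Akr1b3, aldose reductase of the inner medulla, was at 273 FPKM against 138 FPKM in estrus replicate 1 and 22.8 to 35.4 FPKM in the other 4, and the summed medullary osmolyte list was 1270 FPKM against 553 to 820 FPKM. Estrus replicate 1 was therefore next to diestrus replicate 2 in both the urothelium list and Akr1b3. Ucp1, the uncoupling protein of brown fat, was at 14.1 FPKM in diestrus replicate 2 and at or under 0.86 FPKM elsewhere, and Cidea, of lipid droplets, at 8.98 FPKM and at or under 0.94 FPKM. Of the 5 tested brown adipocyte markers, 3 were highest in that library. The more abundant Fabp3 and Cox7a1 were highest in diestrus replicate 3 (140 FPKM) and estrus replicate 3 (43.7 FPKM). The summed list was 213 FPKM in diestrus replicate 2 against 132 to 184 FPKM in the other libraries. In bulk tissue, more cells of a type and more RNA per cell cannot be told apart.

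White fat genes were lower in estrus on average but not in every library. Cfd, adipsin, was at 1.23, 3.95 and 8.08 FPKM in estrus and at 4.04, 46.6 and 24.8 FPKM in diestrus (log2 fold change -1.98, SE 0.81). Adipoq, adiponectin, was at 0.24, 0.54 and 1.66 FPKM in estrus and at 0.66, 7.03 and 4.05 FPKM in diestrus (log2 fold change -1.24, SE 0.55). Of the 10 tested white adipocyte markers, 9 lay below 0, 2 had an unadjusted p under 0.05 and 0 were free of overlap, and diestrus replicates 2 and 3 held the highest values of Cfd, Adipoq, Car3 and Retn. Of all tested genes, 1.36% were lower with an unadjusted p under 0.05 and 3.73% were lower without overlap. Without diestrus replicate 1, 8 of the 10 did not overlap. Over all 12424 tested genes, 1963 did not overlap in either direction without that library, against 992 with all 6 libraries. Blood genes split the libraries in another way: the summed erythroid list was 1490, 139 and 293 FPKM in estrus and 1287, 152 and 1688 FPKM in diestrus. Hbb-bs, an adult beta globin, was at 513, 35.9 and 88.2 FPKM in estrus and at 425, 35.4 and 605 FPKM in diestrus, so that both phases held high and low libraries. The summed hepatocyte list, led by Ttr and Apoc3, did not overlap, at 99.4 to 137 FPKM in estrus and 67.1 to 93.7 FPKM in diestrus. Ttr alone was the largest part of that sum in every library. Among the 7 tested members, Ttr and Apoc3 were the 2 without overlap, with 5 members above 0 and 2 below. Alb, albumin, overlapped between the phases, and Mup20 was listed at 0 in all 6 libraries. The hepatocyte sum thus says little about hepatocytes. The part of these markers in the phase differences of other genes was not tested.

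**Figure D4:**
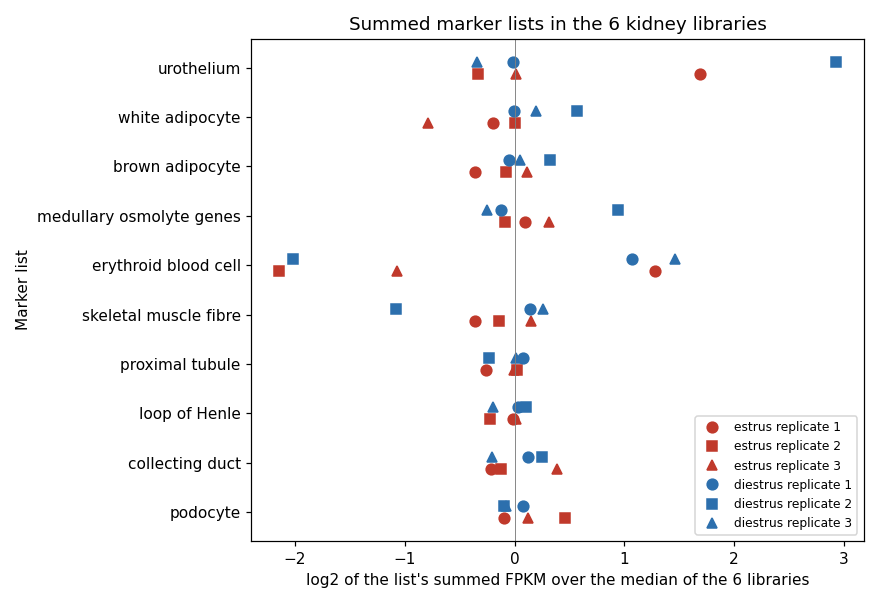
Each row is a marker list, with log2 of its summed FPKM over the median of the 6 kidney libraries on the x axis; estrus is red, diestrus blue, and symbols mark the replicate. The urothelium and medullary osmolyte lists are highest in diestrus replicate 2, and the erythroid list splits both phases.

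Estrus replicate 3 was alone in Ren2, a renin gene nearly identical to Ren1, with 28.0 FPKM against 0.04 and 0.65 FPKM in the other estrus libraries and 0.07 to 0.36 FPKM in diestrus. C57BL/6 mice are known to carry the Ren1 gene alone, and the split of reads between 2 such copies is uncertain. Ren1 in that library was at 84.3 FPKM, within the range of the other 5. The same library was highest for Cyp4b1 (190 FPKM against 48.8 to 92.8 FPKM), a cytochrome P450, for Acaa1b (357 FPKM against 131 to 178 FPKM), a peroxisomal thiolase, and for Cebpb (25.7 FPKM against 6.99 to 12.2 FPKM), a transcription factor. It was lowest for Nr1d1, given above, for Bhmt (5.94 FPKM against 16.9 to 32.2 FPKM), a methyltransferase of methionine metabolism, and for Apob (5.18 FPKM against 14.1 to 20.2 FPKM), the apolipoprotein of large lipoproteins. At a gap of 0.5 log2 units, 277 genes were lowest in estrus replicate 3, more than in any other kidney library (13 to 57 genes).

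Estrus replicate 1 was highest for Pdk4, an inhibitor of pyruvate dehydrogenase, at 19.9 FPKM against 4.74 to 6.89 FPKM in the other 5 libraries. It was lowest for Alas1, the first enzyme of haem synthesis and a clock-controlled gene (48.6 FPKM against 103 to 149 FPKM), for Cyp27b1, which activates vitamin D (3.61 FPKM against 8.28 to 12.7 FPKM), and for Nat8f6 (16.5 FPKM against 40.2 to 115 FPKM). Nat8f6 and the histocompatibility genes H2-Q6 and H2-Q8, which also varied widely between libraries, have near-identical copies, and their values are uncertain. Diestrus replicate 1 was lowest for Cnbd2 (30.2 FPKM against 105 to 381 FPKM) and for the predicted genes Gm43305 and Gm41844, which had log2 fold changes of 1.66, 1.08 and 1.28 with overlap of the phases. Estrus replicate 2 stood apart least, with 0 genes high and 1 gene, Higd1c, low by at least 1 log2 unit.

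**Figure D5:**
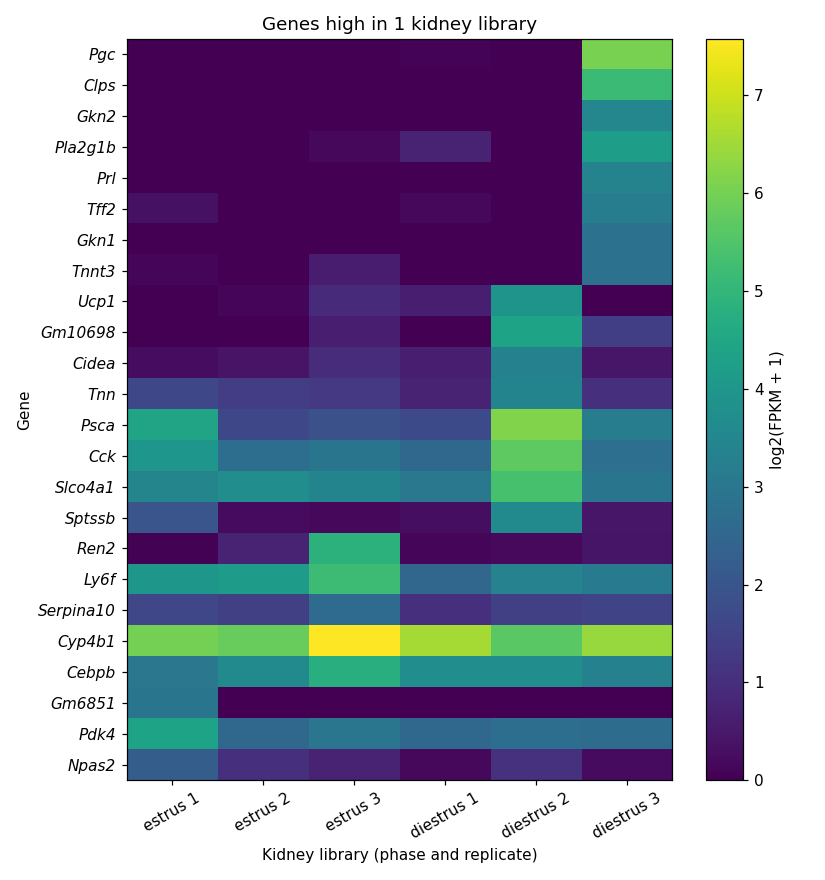
Rows are genes that stood at least 1 log2 unit above the other libraries in 1 kidney library, columns are the 6 libraries, and the colour gives log2(FPKM + 1). The upper rows, led by Pgc and Clps, are bright in diestrus replicate 3 alone, the next rows, led by Ucp1, in diestrus replicate 2, and the row of Ren2 in estrus replicate 3.

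The phase difference of the kidney was set against that of the tissues with the most similar profiles, brown adipose tissue (mean Pearson correlation 0.719) and white adipose tissue (0.717). In the limma interaction of tissue and phase, 0 of 10471 genes (0%) differed from brown adipose tissue at an adjusted p of 0.05 or less, and 1520 did at an unadjusted p under 0.05, with a smallest adjusted p of 0.0578. Brown adipose estrus replicate 3, however, listed 12048 genes at 0, against 4545 to 4820 in the other 5 libraries of that tissue. Without it, a choice made after the data were seen, 736 genes (7.03%) passed. The median absolute log2 fold change of these genes was 0.16 in kidney and 0.58 in brown adipose tissue, and 13 of them had an absolute log2 fold change of 0.5 or more in kidney. Of the 20 named genes, Ly6f, Ccl28, Scgb1c1, Sec14l3, Mzb1, Urah and Stra6 had a mean under 1 FPKM in brown adipose tissue and were not tested against it. Among the other named genes, Coq10b (difference kidney minus brown adipose tissue -1.17, SE 0.26, limma adjusted p = 0.0318), Lonrf1 (-0.90, SE 0.24, limma adjusted p = 0.0459) and the identical pair Gm2260 and Gm2274 (1.87, SE 0.40, limma adjusted p = 0.0300) passed. Ciart and Dbp did not, with differences of -0.33 (SE 0.55) and -0.38 (SE 0.83). The 20 genes were chosen for their kidney phase differences, and the same kidney values enter this fit. A difference from another tissue was therefore favoured by the choice of genes. The fit held no term for mice, which libraries of different tissues may share. Against white adipose tissue, 0 of 11056 genes (0%) passed, with 405 at an unadjusted p under 0.05. There the log2 fold change of Dbp was -0.22, a difference from the kidney of -1.73 (SE 0.67, limma adjusted p = 0.980), and that of Ciart was -0.91, a difference of -1.29 (SE 0.84, limma adjusted p = 0.980).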

How the data were processed

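RNA was extracted from frozen tissue, and libraries were sequenced on the BGISEQ-500. The authors filtered reads with SOAPnuke, aligned them with Bowtie2 2.2.5 to mouse transcripts (GRCm38.p5) and estimated expression with RSEM 1.2.8, per the methods and the submitters' processing notes. The deposited table holds 1 FPKM value per gene and library, normalised by the authors for length and mapped fragments. FPKM as the unit was read from the methods and the values. The study tested counts with DEGSeq, which FPKM do not allow.

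Genes were matched by Entrez gene ID to RefSeq symbols (20265 of 20414 matched). Genes with a mean kidney FPKM of at least 1 were tested on log2(FPKM + 1) with limma 3.58.1 (R 4.3.3, trend, Benjamini-Hochberg adjustment), estrus against diestrus, 3 libraries each. A call needed an absolute log2 fold change of 1 and an adjusted p of 0.05. Named genes were those called, the 10 largest positive and 10 largest negative differences among genes with an unadjusted p under 0.05 and no overlap, the genes farthest from the other 5 libraries in each library, list members without overlap and the 3 most abundant of each list, and a fixed set of hormone, renin and clock genes; from long groups examples are given, and some genes of these groups are not reported here. The members and lists were chosen with earlier results of these data known.

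Depth was approximated from 933 single-transcript genes of 300 to 1100 bases (GENCODE vM21): at the best depth 61.0 to 72.5% of low values were whole reads within 0.2 reads, against 40.0% by the tolerance alone, so counts were not recovered. Fits were tested on simulated data. Replicate numbers did not pair the samples: deviations of same-numbered libraries correlated at -0.15, 0.01 and 0.12. Libraries within a phase are separate mice per the methods. The labels give 10 weeks as the age, and the methods another.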

Additional observations from a re-analysis of the deposited data

How the results depend on the processing

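The count of genes called by limma stayed at 0 under every alternative run except 1 fit of all 90 libraries, which called 3 genes (Ren2 with an adjusted p of 0.0311, Ly6f with 0.0156 and Nat8f6 with 0.0244), and the smallest adjusted p without a library was 0.0794, without estrus replicate 2. The fit of 90 libraries takes the spread of a gene from all 15 tissues. The log2 fold change of Ly6f was above 0 in 4 of the other 14 tissues, below 0 in 2 and exactly 0 in the rest. That of Ren2 was 0.14 without estrus replicate 3, and that of Nat8f6 was -0.62 without estrus replicate 1. Genes with an unadjusted p under 0.05 numbered 357, but 571 without a filter, 183 in the fit of 90 libraries, and 162 (without diestrus replicate 3) to 610 (without estrus replicate 1) when 1 library was left out, with 558 without estrus replicate 3. Genes without overlap numbered 992, and 1524 to 2928 when 1 library was left out, since fewer values then have to be separated. Genes with a log2 fold change of at least 1 numbered 40, against 74 with a pseudocount of 0.1, 14 with a pseudocount of 5 and 25 with a mean of at least 5 FPKM. Cases of a gene that stood apart in a single library numbered 94, in 93 genes, against 738 at a gap of 0.5, 21 at a gap of 2, and 192 and 30 with pseudocounts of 0.1 and 5.

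With the replicate block, 0 genes were called, 295 had an unadjusted p under 0.05, and the interactions with brown and white adipose tissue called 0 and 0 genes. Without estrus replicate 3 of brown adipose tissue, the library with the most genes at 0, the interaction with that tissue called 736 genes; this alternative was chosen after the data were seen. The kidney against the mean of the other 14 tissues, in 1 fit of 90 libraries, called 27 genes; the cause of the difference from the main interactions was not tested. Of the values of named genes and lists under the alternatives, 846 kept their side of the threshold or, for list medians, moved by less than the spread between replicates, 11 list medians moved by more, Ly6f became called in the fit of 90 libraries, and 0 reversed. Uncalled values could still shrink, as for Nr1d1 (-1.12, but -0.05 without estrus replicate 3) and Npas2 (0.86, but 0.42 without estrus replicate 1). The counts over the clock, cholesterol and adipocyte lists without each library were added after the data were seen. DESeq2 and edgeR were not run, since counts could not be recovered. A transcript listed at 0 FPKM was not detected at the depth of its library, which does not show that it was absent. That depth was only approximated here, at 13100000 to 14400000 reads, below the number given in the study's methods.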
